A study of Mus musculus with 4 samples.

Results

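A set of 10 secreted matrix genes was followed in NIH 3T3 cells, an established mouse embryonic fibroblast line, in which Selt was targeted for knockdown. Selt, now named Selenot, encodes selenoprotein T, a thioredoxin-fold protein of the endoplasmic reticulum. The genes were Thbs1, Thbs2, Ccn1, Ccn2, Ccn5, Postn, Tnc, Sparc, Fn1 and Eln, and all 10 had probes on the array, out of 12347 genes with a probe of a single name. They were taken by name and chosen by their family together with the ratios these same arrays gave, so every ratio against vector below, and every difference between the constructs, is a description of the members and supports nothing further. Each of the 4 two-colour arrays set Cy5-labelled RNA of cells stably transfected with a pU6-m3 construct against Cy3-labelled RNA of cells carrying the pU6-m3 vector alone. The construct siSelT-1 covers nucleotides 205 to 224 of the Selt transcript and siSelT-5 nucleotides 971 to 989. There were 2 arrays per construct, whose RNA came from separate cultures grown on different occasions. All cells, vector controls included, were kept in 150 µg/ml hygromycin B, 10% serum and 100 nM sodium selenite. Whether a line was 1 clone or a pool, and whether arrays shared vector RNA, is not given in the sources used here. Selt had no probe under its name, and the extent of its knockdown was not analysed here.

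Matricellular proteins are secreted into the matrix but act mainly as signals rather than as scaffold. Thrombospondins, CCN proteins, tenascin C, periostin and SPARC bind integrins, syndecans, growth factors and proteases, and fibroblasts secrete more of several of them during wound repair and under TGF-beta. Fibronectin and elastin are structural. Fibronectin fibrils are laid down by integrins at the cell surface, and elastin is cross-linked on a microfibril scaffold into the elastic fibres of vessels, lung and skin. Ccn1, Ccn2 and Thbs1 are widely used as readouts of YAP, the coactivator that binds DNA through TEAD factors.

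The values were log ratios of knockdown over vector, read as log2, so that 0 is the vector level and -1 is 2-fold lower. Of 22534 probes, 7689 and 9232 had a value with siSelT-1 (replicates 1 and 2), compared with 20268 and 18361 with siSelT-5, and the 7038 measured on all 4 arrays are called shared probes here. Their medians were above 0 on every array, from 0.09 to 0.19 with siSelT-1 and from 0.36 to 0.43 with siSelT-5, and a centred ratio is one from which its array's median was subtracted. The 10 genes had 21 probes, of which 12 were shared, and these gave 9 of the 10 genes a place among the 4754 genes tested with limma. Ccn1 was the gene left out, since neither of its probes had a siSelT-1 value. A gene is said to have passed where its two-sided p, adjusted by Benjamini-Hochberg across all 4754, was below 0.05. Between replicates the siSelT-5 arrays were the looser pair, with a root mean square SD over genes of 0.35 against 0.16. In a fit with 1 array left out, the spread comes from the other construct's pair alone. Without a siSelT-1 array it thus rests on the looser pair, and without a siSelT-5 array on the tighter one. Counts of genes that passed in such fits depend on this and are not read as results about the members. The arrays measured bulk RNA, in which fewer cells of a type and less RNA per cell cannot be told apart.

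For both constructs together the members lay mostly below vector. Of 9 tested, 5 fell (Thbs1, Ccn2, Eln, Tnc and Fn1), 1 rose (Postn) and 3 did not pass (Thbs2, Ccn5 and Sparc). Of all 4754 genes 53.7% passed, 8.04% as lower and 45.7% as higher, and since the ratios chose the members nothing is read from their share. The median of the 9 members was -0.61 and that of all genes 0.25. Centred, 7 members fell and 0 rose, against 21.9% and 20.5% of all genes (42.4% in all), with Thbs2 and Sparc added to those that fell and Postn no longer passing. Without siSelT-1 replicate 1 no member passed and no other gene did (0 of 4754 in limma, with 1846 at an unadjusted p under 0.05). Without siSelT-1 replicate 2, 3 members and 873 of the 4754 genes passed. Without siSelT-5 replicate 1, 7 members and 3133 genes passed, and without siSelT-5 replicate 2, 7 members and 3190 genes.

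**Figure D1:**
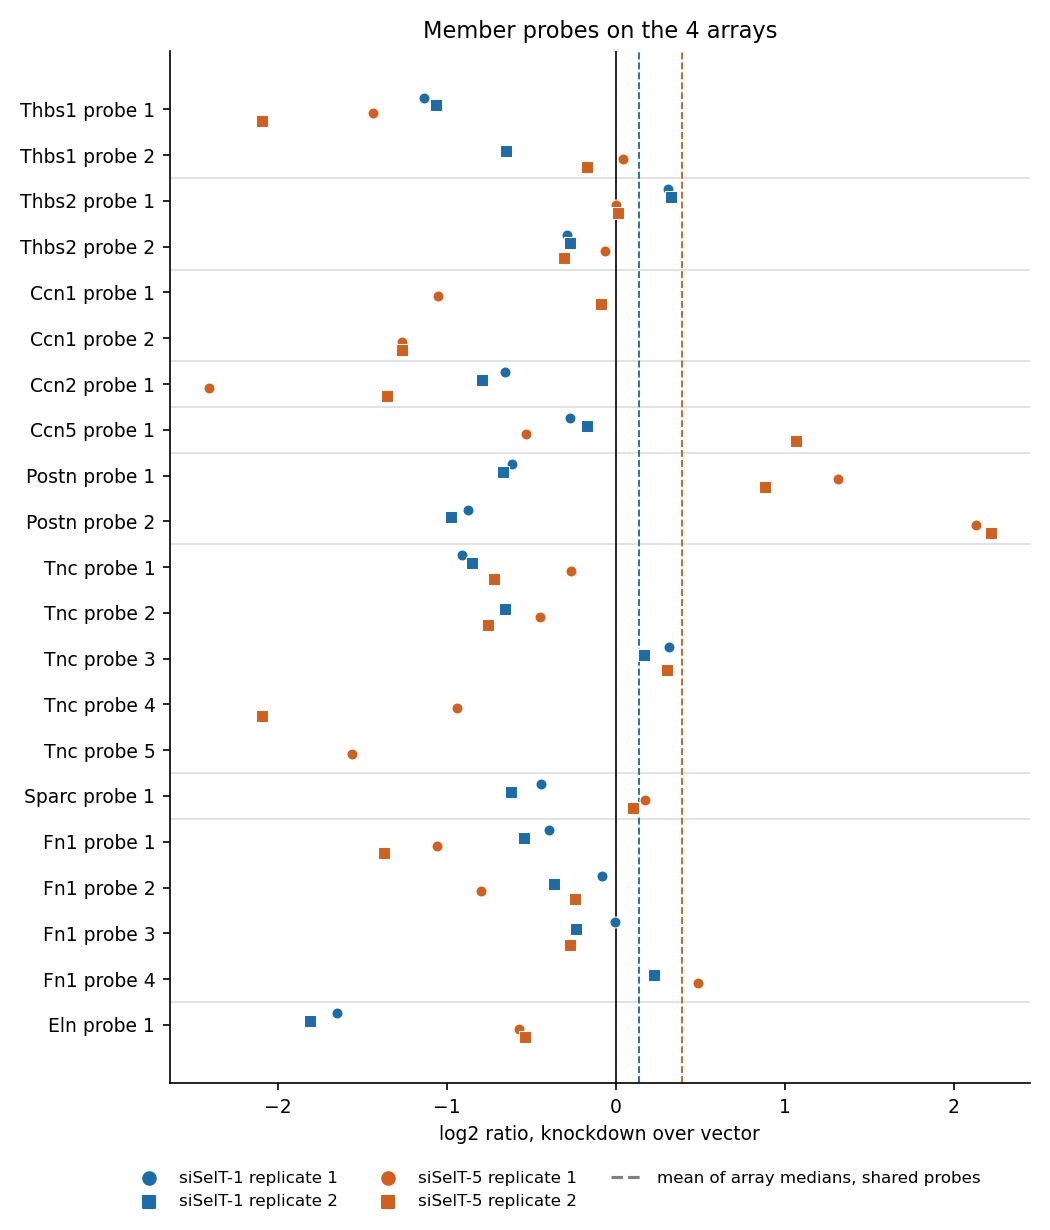
Log2 ratio of knockdown over vector (horizontal axis) of each of the 21 member probes (rows, numbered within a gene) on each array, with siSelT-1 in blue and siSelT-5 in orange, replicate 1 as circles and replicate 2 as squares, and dashed lines at the mean of each construct's 2 shared-probe medians. Both Postn probes lie left of 0 in blue and right of 0 in orange, and the Thbs1, Ccn2 and Eln probes with 4 values lie left of 0 on all arrays.

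Thbs1 (Entrez Gene 21825) encodes thrombospondin 1, a trimeric glycoprotein that binds CD36, CD47 and integrins and activates latent TGF-beta. Its probe with 4 values read -1.13 and -1.06 with siSelT-1 and -1.43 and -2.09 with siSelT-5. All 4 arrays were below vector by at least 2-fold, and the constructs' arrays did not overlap. The gene fell to a mean of -1.43 ± 0.47 (SD, n = 4), 2.70-fold below vector and the lowest of the 4754 genes. By construct it stood at -1.10 ± 0.05 and -1.76 ± 0.47 (SD, n = 2 each), passed for both, and did not pass for the difference. A second probe had no value on siSelT-1 replicate 1 and read -0.65 on siSelT-1 replicate 2, and 0.04 and -0.17 with siSelT-5. Like the first probe it was thus lower than vector on siSelT-1 replicate 2, and unlike the first it was near vector with siSelT-5. Among 949 genes with at least 2 shared probes, 67.9% of the pairs had the same sign of their mean. The median gap between the 2 probes was 0.25 with siSelT-1 and 0.40 with siSelT-5. In the large majority of these genes the siSelT-5 gap was at most 1.02. With siSelT-5 the Thbs1 probes lay further apart than that, at means of -1.76 and -0.06, though the second is not a shared probe. The Thbs1 mean and rank given above thus rest on the first probe alone.

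Thbs2 encodes thrombospondin 2, which lacks the TGF-beta activating sequence of its relative and limits vessel growth. Its 2 shared probes went opposite ways with siSelT-1, at 0.31 and 0.33 for the first and -0.29 and -0.27 for the second. With siSelT-5 the first read 0.00 and 0.01 and the second -0.07 and -0.30. The mean of the probes was -0.04 ± 0.08 (SD, n = 4) and did not pass, and it passed as lower after centring, at -0.30. No direction is given for Thbs2 on the probe level with siSelT-1, since the replicates agreed within each probe and the probes did not.

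Ccn2 (Entrez Gene 14219) encodes connective tissue growth factor, which binds integrins, heparan sulfate and TGF-beta and promotes matrix production. Its single probe read -0.66 and -0.79 with siSelT-1 and -2.41 and -1.35 with siSelT-5. Every siSelT-5 array lay below both siSelT-1 arrays, though the siSelT-5 arrays were far apart, and their mean of -1.88 ± 0.75 (SD, n = 2) was the second lowest of the shared probes for that construct. The siSelT-1 mean was -0.72 ± 0.10 (SD, n = 2). Ccn2 fell for both constructs together, to -1.30 ± 0.80 (SD, n = 4), and for siSelT-5 alone. It did not pass for siSelT-1 alone or for the difference, and the fit uses 1 spread per gene for both constructs. For siSelT-1 Ccn2 passed with weights by array and with centred and scaled arrays. In these settings 1920 and 1588 of 4754 genes passed for siSelT-1, against 650 in the main fit. Each construct has its own mean in the fit, so leaving out a siSelT-5 array cannot change the siSelT-1 mean and tests nothing.

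Ccn1 (Entrez Gene 16007), also known as Cyr61, encodes a CCN protein that supports adhesion and, through integrins, fibroblast senescence. It was measured with siSelT-5 alone. The first probe read -1.05 and -0.09 on the 2 arrays and the second -1.26 and -1.26. Both probes lay below vector on both arrays, but the first did so barely on replicate 2. Their level has to be read against other probes measured in the same way: the 7460 probes with values on both siSelT-5 arrays and none on the siSelT-1 arrays had a median of -0.63. The first Ccn1 probe, at -0.57 ± 0.68 (SD, n = 2), lay near that median (53.4% of those probes were lower), and the second, at -1.26, had 17.6% below it. In a fit of the siSelT-5 arrays alone, chosen after these values were seen, Ccn1 passed as lower at -0.92, where 17.7% of 9711 genes were lower and 11.1% higher. After centring it passed at -1.31, where 39.1% were lower and 3.89% higher.

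Of the YAP readouts Ccn1, Ccn2 and Thbs1, Ccn1 alone had a promoter entry, and its promoter is shown. In the RefSeq promoter windows (GRCm38.p6), 5 of the 10 members had an entry, with 7 windows: Thbs2, Ccn1, Postn, Tnc and Sparc. Thbs1, Ccn2, Ccn5, Fn1 and Eln had none. Each 250 bases before a start were searched on both strands for the TEAD core GGAATG, for the AP-1 site TGANTCA, for TATAAA and for the CArG box that binds SRF. None of these letters overlapped another in the 7 windows. Ccn1 was the member with GGAATG, read on the opposite strand as CATTCC with its first base at -103 from the start, and it also held TATAAA at -25. Of 32851 windows 12.6% held GGAATG, 12.4% TATAAA, 6.75% TGANTCA and 1.47% a CArG box. No member window held TGANTCA or a CArG box. TATAAA was found in Thbs2, in 1 of the 2 Postn windows and, as the same site of overlapping windows, in both Tnc windows. A match is a description of these letters and says nothing on binding. The window before the Ccn1 start, chr3:145649986-145650235 on the minus strand, reads as follows with CATTCC and TATAAA in capitals.
Ccn1: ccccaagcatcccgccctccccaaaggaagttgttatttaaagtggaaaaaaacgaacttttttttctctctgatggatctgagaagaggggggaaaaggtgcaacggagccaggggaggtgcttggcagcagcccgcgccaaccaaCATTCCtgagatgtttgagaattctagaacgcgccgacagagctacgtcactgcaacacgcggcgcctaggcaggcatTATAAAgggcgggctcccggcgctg

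Ccn5 (Entrez Gene 22403), also known as Wisp2, encodes a shorter CCN protein without the C-terminal cystine knot of the others. Its single probe read -0.27 and -0.17 with siSelT-1 and -0.53 and 1.07 with siSelT-5. The siSelT-1 arrays were slightly below vector, and the siSelT-5 arrays lay on opposite sides of it, with the largest siSelT-5 SD of the member probes, 1.13. Its mean, 0.02 ± 0.71 (SD, n = 4), did not pass. With 1 siSelT-5 array left out its mean lay on either side of vector, at 0.42 without siSelT-5 replicate 1 and at -0.37 without siSelT-5 replicate 2. Each of these values rests on 1 siSelT-5 array.

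Postn (Entrez Gene 50706) encodes periostin, which links collagen, fibronectin and tenascin C and is laid down by fibroblasts in tissue under strain and in repair. Among the tested members Postn and Sparc lay below vector on both siSelT-1 arrays and above it on both siSelT-5 arrays, and Postn kept these sides after centring. One Postn probe read -0.88 and -0.97 with siSelT-1 and 2.13 and 2.22 with siSelT-5. The other read -0.62 and -0.67 with siSelT-1 and 1.32 and 0.89 with siSelT-5. The first of these had the highest siSelT-5 mean of all 7038 shared probes, at 2.17 ± 0.06 (SD, n = 2), and the second was smaller in both directions. As the mean of both probes Postn fell to -0.78 ± 0.05 with siSelT-1, 1.72-fold below vector, and rose to 1.64 ± 0.12 with siSelT-5, 3.11-fold above it (SD, n = 2 each). siSelT-1 minus siSelT-5 was -2.42 ± 0.16 (SE), and Postn passed for this difference, in which 3 of 4754 genes (0.0631%) passed, 0.0421% as lower and 0.021% as higher. Fitted probe by probe, the first Postn probe passed and the second did not. The other two genes were Igf2, lower with siSelT-1, and Speer4b, higher with it. The call was lost without siSelT-1 replicate 1 (-2.46) and without siSelT-1 replicate 2 (-2.38), where no gene passed (0 in limma, 628 and 512 at an unadjusted p under 0.05). After centring the siSelT-1 mean was -0.92 and the siSelT-5 mean 1.24, and the difference still passed, at -2.17, among the same percentages of genes. The value for both constructs together, 0.43, averages these opposite ratios and describes neither construct. Of all genes 9.51% were below vector on both siSelT-1 arrays and above it on both siSelT-5 arrays, and 6.73% after centring.

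Postn had a pair of promoter windows, the second of which, chr3:54360857-54361106 on the plus strand, is shown because Postn had the widest difference between the constructs among the members. It held TATAAA at -26 (capitals), and GGAATG was in neither window.
Postn: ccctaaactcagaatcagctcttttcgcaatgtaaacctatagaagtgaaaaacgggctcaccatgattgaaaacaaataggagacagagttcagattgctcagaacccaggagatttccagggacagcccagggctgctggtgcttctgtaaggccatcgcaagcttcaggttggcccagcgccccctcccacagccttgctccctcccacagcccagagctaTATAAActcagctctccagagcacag

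**Figure D2:**
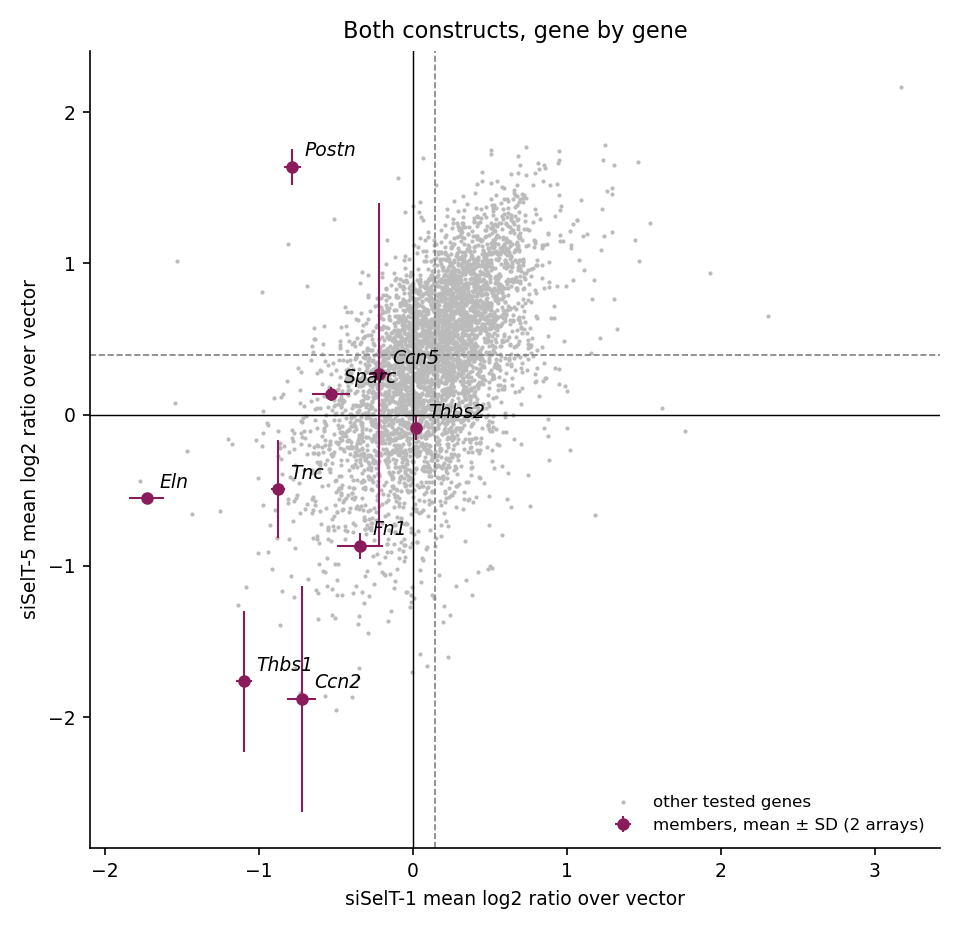
Mean log2 ratio over vector with siSelT-1 (horizontal axis) and with siSelT-5 (vertical axis) for the 4754 tested genes (grey) and the 9 tested members (purple, bars ± SD of 2 arrays), with dashed lines at the mean of each construct's shared-probe medians. Postn stands at -0.78 and 1.64, apart from Thbs1, Ccn2, Eln, Tnc and Fn1 at the lower left, and Ccn5 has the longest vertical bar.

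Tnc (Entrez Gene 21923) encodes tenascin C, a hexameric glycoprotein that weakens adhesion to fibronectin and is raised at wound edges. Its one probe with 4 values read -0.91 and -0.85 with siSelT-1 and -0.26 and -0.72 with siSelT-5, so that all arrays were below vector and the siSelT-1 arrays were the lower. Tnc fell to -0.69 ± 0.29 (SD, n = 4) and passed for each construct alone. The other probes had fewer values. One read -0.66 on siSelT-1 replicate 2 and -0.45 and -0.76 with siSelT-5, much like the first. Another, with values on siSelT-5 alone, read -0.94 and -2.09, and 9.33% of the probes measured in the same way were lower. One had a single value, -1.56 on siSelT-5 replicate 1, and 34.1% of the probes with a value on that array alone were lower. The remaining probe went the other way, with 0.31 and 0.17 with siSelT-1 and 0.30 on siSelT-5 replicate 2. Thus 4 of 5 Tnc probes were below vector wherever they had a value and 1 was above it. Probes with values on both siSelT-5 arrays alone had a median of -0.63. Those with a value on siSelT-5 replicate 1 alone had a median of -1.26. The sign of the Tnc probes measured in these ways is thus not read as a fall.

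Sparc (Entrez Gene 20692) encodes osteonectin, a collagen-binding glycoprotein that counters cell spreading. Its single probe read -0.44 and -0.62 with siSelT-1 and 0.17 and 0.10 with siSelT-5. The constructs did not overlap, and Sparc fell for siSelT-1, to -0.53 ± 0.12 (SD, n = 2). With siSelT-5 it stood at 0.14 ± 0.05 (SD, n = 2) and did not pass, and centring turned that value to -0.26. The difference between the constructs did not pass.

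Fn1 (Entrez Gene 14268) encodes fibronectin, the adhesive glycoprotein on which fibroblasts spread. Its first probe with 4 values read -0.39 and -0.54 with siSelT-1 and -1.06 and -1.37 with siSelT-5, with the siSelT-5 arrays below both siSelT-1 arrays. The second read -0.08 and -0.36 with siSelT-1 and -0.79 and -0.24 with siSelT-5, where the constructs overlapped. As their mean Fn1 fell to -0.61 ± 0.32 (SD, n = 4) for both constructs and to -0.87 ± 0.09 for siSelT-5, and it stood at -0.34 ± 0.15 for siSelT-1 without passing (SD, n = 2 each). Another probe lacked siSelT-5 replicate 1 and read -0.01, -0.23 and -0.27, and the last was above vector on its 2 arrays, at 0.22 on siSelT-1 replicate 2 and 0.49 on siSelT-5 replicate 1. Thus 3 of the 4 probes were below vector on each array that measured them. Fibronectin transcripts are spliced in several ways, and which exons each probe covers was not analysed here.

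Eln (Entrez Gene 13717) encodes tropoelastin, the monomer of elastic fibres. Its single probe read -1.65 and -1.81 with siSelT-1 and -0.57 and -0.54 with siSelT-5. All arrays were below vector, those of siSelT-1 by more, and the constructs did not overlap. With siSelT-1 Eln fell to -1.73 ± 0.11 (SD, n = 2), or 3.32-fold, the second lowest of the 4754 genes for that construct. With siSelT-5 it fell to -0.55 ± 0.03 (SD, n = 2), or 1.47-fold, where it ranked 265 from the lowest. The difference, -1.18 ± 0.16 (SE), did not pass. It passed with weights by array (-1.18), with arrays centred on all their values (-1.51) and with centred and scaled arrays (-1.65). In these settings 279, 2512 and 15 of 4754 genes passed for the difference, against 3 in the main fit. The difference was -1.19 without siSelT-5 replicate 1 and -1.16 without siSelT-5 replicate 2.

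By construct, siSelT-1 placed the members in the order Eln, Thbs1, Tnc, Postn, Ccn2, Sparc, Fn1, Ccn5 and Thbs2 from the lowest ratio. Eln and Thbs1, at -1.73 ± 0.11 and -1.10 ± 0.05, were separated by more than their SD, whereas Postn at -0.78 ± 0.05 and Ccn2 at -0.72 ± 0.10 were not. Of the 9, 5 fell (Eln, Thbs1, Tnc, Postn and Sparc) and 0 rose with siSelT-1, against 3.37% and 10.3% of all genes (13.7% in all). Centred, these counts were again 5 and 0, against 5.07% and 3.83% (8.9% in all). The members' median for siSelT-1 was -0.72 as deposited, and that of all genes 0.14. Without siSelT-1 replicate 1 or without siSelT-1 replicate 2 no member and no other gene passed (0 in limma, 390 and 585 genes at an unadjusted p under 0.05). siSelT-5 gave the order Ccn2, Thbs1, Fn1, Eln, Tnc, Thbs2, Sparc, Ccn5 and Postn. Ccn2 and Thbs1 lay closer to each other than their SD, as did Eln and Tnc (-0.49 ± 0.33), and the Ccn5 arrays spanned the values of Thbs2 and Sparc. With siSelT-5, 5 fell (Ccn2, Thbs1, Fn1, Eln and Tnc) and 1 rose (Postn), against 6.29% and 47.6% of all genes (53.9% in all). Centred, 6 fell, with Thbs2 added, and 1 rose, against 20% and 19.2% (39.2% in all). The members' median for siSelT-5 was -0.49 as deposited, and that of all genes 0.37. For siSelT-1 minus siSelT-5 Postn alone passed.

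**Figure D3:**
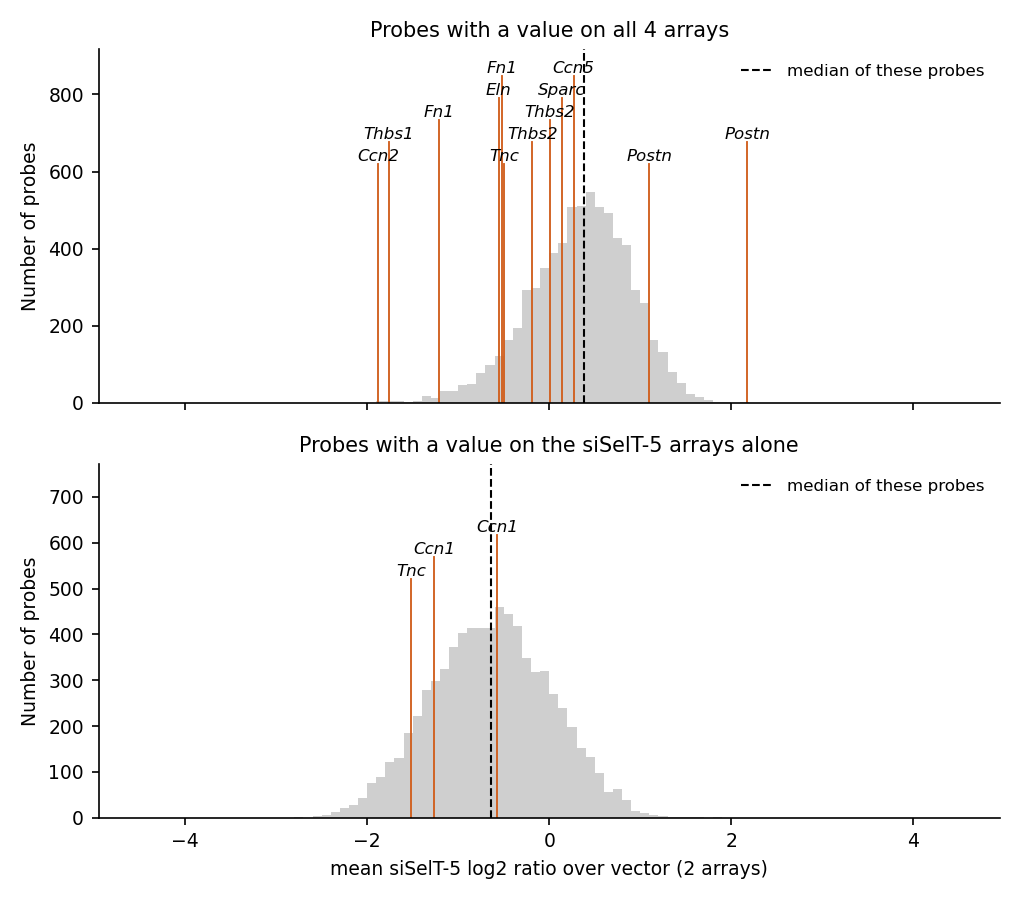
Number of probes (vertical axis) by mean siSelT-5 log2 ratio over vector (horizontal axis, bins of 0.1), for the 7038 probes with values on all arrays (upper panel) and the 7460 with values on the siSelT-5 arrays alone (lower panel), with member probes as orange lines and medians dashed. The medians are 0.38 and -0.63, so the Ccn1 probes at -0.57 and -1.26 lie within the lower distribution, while Ccn2 and Thbs1 lie at the low end and 1 Postn probe at the high end of the upper one.

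The genes nearest to the lowest members over the 4 arrays were found by Euclidean distance of the ratios among 4754 genes. Thbs1 was followed by 1700001F09Rik (0.61), Gnai1 (0.71) and Rtca (0.80). Ccn2 was followed by Prpf38b (0.53), Rnf13 (0.71) and Gnai1 (0.76). Eln was followed by Cacnb2 (0.36), Ttyh1 (0.46) and Ppp1r37 (0.70). Gnai1, an inhibitory G protein subunit gene, was near both Thbs1 and Ccn2.

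The counts of the related gene lists that follow stand beside those of all 4754 genes, of which 45.7% rose and 8.04% fell as deposited, with a median of 0.25, and 20.5% rose and 21.9% fell after centring. Relatives of the members were thinly measured. Of 18 further thrombospondin, CCN, tenascin, SPARC and similar genes 3 had a shared probe. The thrombospondin gene Thbs3 rose to 0.35 ± 0.19 (SD, n = 4), as deposited but not after centring. The follistatin-like gene Fstl1 did not pass for both constructs together, at 0.26 ± 0.75, or for siSelT-1, at -0.34, and rose with siSelT-5, at 0.87. Tgfbi, a TGF-beta induced integrin ligand, stood at -0.10 ± 0.08 and passed only after centring, as lower. Of 22 elastic fibre and microfibril genes 9 were tested, and 4 rose and 1 fell, with 3 and 3 after centring. Ltbp1, which holds latent TGF-beta in the matrix, rose to 0.81 ± 0.26, the elastin microfibril interfacer gene Emilin1 to 0.66 ± 0.24 and the fibulin gene Efemp1 to 0.62 ± 0.36, while Fbln2, for fibulin 2, fell to -0.60 ± 0.20. These 4 passed on both scales. The median of the list was 0.19, against 0.25 over all genes and -1.14 for Eln.

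Of 22 receptor genes for these proteins 10 were tested, and 7 rose and 1 fell, but 1 and 2 after centring (median 0.34 as deposited). By construct 1 rose and 0 fell with siSelT-1, and 4 rose and 1 fell with siSelT-5. The heparan sulfate proteoglycan genes Sdc1 and Sdc2 rose to 0.67 ± 0.20 and 0.51 ± 0.31 (SD, n = 4) and the fibronectin receptor subunit gene Itgb1 to 0.39 ± 0.36. The Wnt coreceptor gene Lrp6, whose protein also binds Ccn2, fell to -0.32 ± 0.25. Sdc1 and Lrp6 passed after centring as well, and Sdc2 and Itgb1 did not.

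Of 22 listed YAP targets, among which Thbs1 was not counted, 8 were tested, 3 rose and 1, Ccn2, fell, with a median of 0.16. By construct 0 rose and 0 fell with siSelT-1, and 4 rose and 1 fell with siSelT-5. The receptor kinase gene Axl rose to 0.58 ± 0.35 (SD, n = 4), Asap1 to 0.77 ± 0.55 and the growth arrest gene Gadd45a to 0.54 ± 0.20. After centring 2 rose (Asap1 and Axl) and 2 fell (Ccn2 and Crim1). Among the pathway's own genes 7 of 20 were tested. Yap1 itself rose to 0.74 ± 0.15 and Tead2 to 0.72 ± 0.36, the scaffold gene Sav1 fell to -0.67 ± 0.06, and the upstream gene Nf2 rose to 0.31 ± 0.15, so that 3 rose and 1 fell. After centring 2 rose and 3 fell, with Nf2 no longer passing and Wwtr1 and Mob1a added as lower.

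Of 20 listed TGF-beta induced genes outside the members 11 were tested, and 5 rose and 0 fell, among them Tgfb1i1 at 0.59 ± 0.37, Col5a1 at 0.47 ± 0.28, Itgb5 at 0.33 ± 0.22 and Ltbp2 at 0.32 ± 0.27 (SD, n = 4), but 1 and 2 after centring (median 0.30). Their counts as deposited were 0 and 0 with siSelT-1 and 6 and 0 with siSelT-5. Of 15 ligand, receptor and SMAD genes 9 were tested and 3 rose: Ltbp1, Smad3 (0.56 ± 0.31) and Smurf1 (0.50 ± 0.15). Smurf2 did not pass for both constructs together, at -0.40 ± 1.10, and fell with siSelT-5, at -1.19, and 2 rose and 1 fell after centring (median -0.05 as deposited). Of 24 SRF and MRTF targets 17 were tested, and 8 rose and 1 fell, with 2 and 4 after centring (median 0.31). By construct 0 rose and 2 fell with siSelT-1 (median -0.02), and 11 rose and 0 fell with siSelT-5 (median 0.58), against medians of all genes of 0.14 and 0.37. The myosin gene Myh9 rose to 0.64 ± 0.21, Actb to 0.53 ± 0.30 and Tagln2 to 0.50 ± 0.39, and Egr1 fell to -0.51 ± 0.52. Egr1 passed for siSelT-1, at -0.94, and not for siSelT-5, at -0.07. Without siSelT-1 replicate 1, where no gene passed, the counts of each of these lists were 0. Without siSelT-1 replicate 2 the genes that rose and fell were 2 and 1 of the elastic fibre list, 1 and 0 of the receptors, 2 and 1 of the YAP targets, 1 and 1 of the Hippo genes, 0 and 0 of the TGF-beta induced genes, 2 and 0 of the TGF-beta pathway and 1 and 0 of the SRF and MRTF targets.

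**Figure D4:**
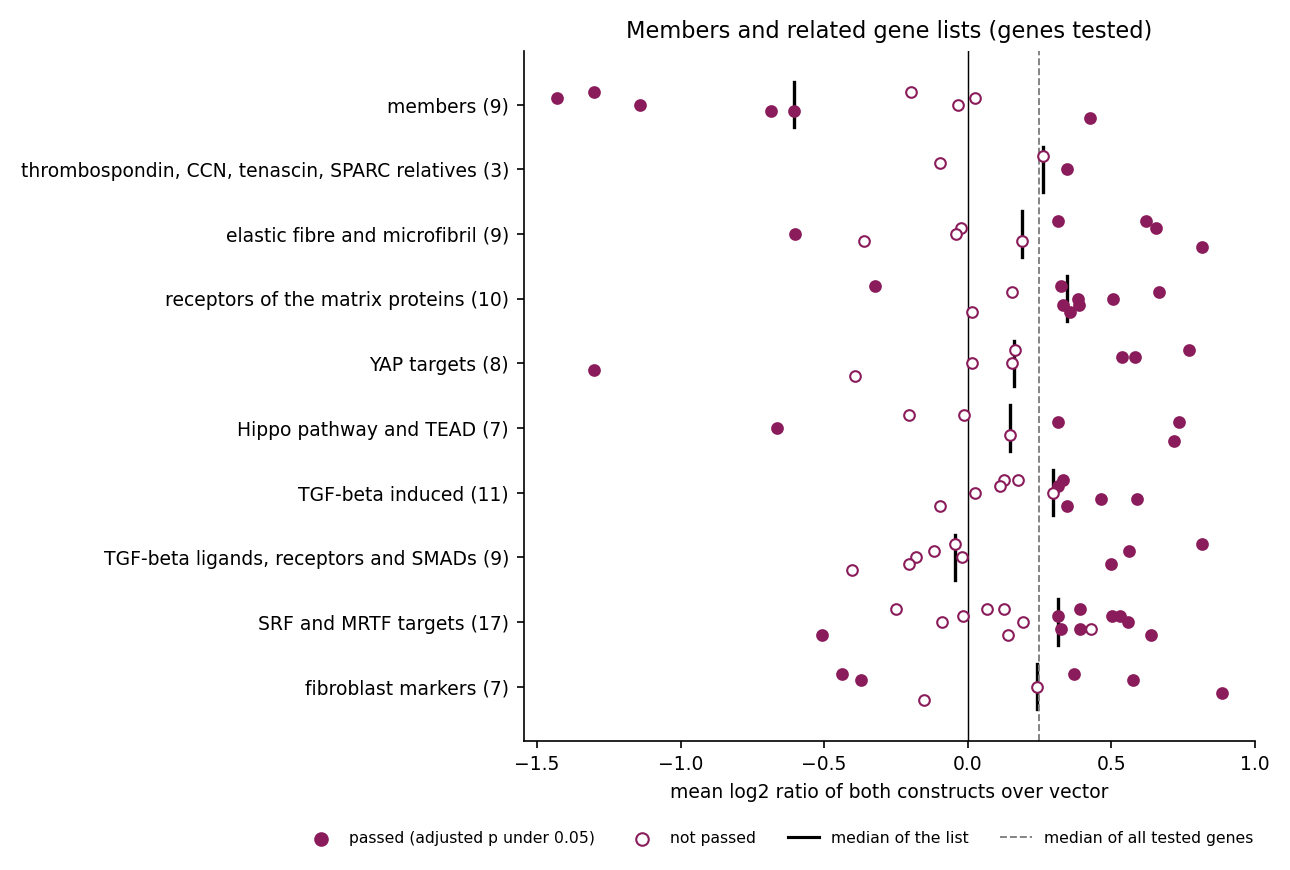
Mean log2 ratio of both constructs over vector (horizontal axis) of each tested gene of the members and of 9 related lists (rows, number tested in brackets), filled where the gene passed, with the list median as a black bar and the median of all tested genes dashed. The members' median is -0.61, and the other lists have medians between -0.05 and 0.34.

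The labelled cell type was set against its markers. Of 12 fibroblast markers 7 were tested, and 3 rose (Pdgfra 0.88, Vim 0.57 and Thy1 0.37) and 2 fell (Col3a1 -0.44 and Dcn -0.37), with 2 and 3 after centring. Both that fell passed for siSelT-1, Col3a1 at -0.72 and Dcn at -0.86, and neither passed for siSelT-5, where Col3a1 was -0.15 and Dcn 0.12. By construct 1 rose and 2 fell with siSelT-1, and 3 rose and 0 fell with siSelT-5. A ratio gives no level, so whether a marker was present could not be read from these arrays. Of 8 endothelial markers 3 were tested and all 3 rose on both scales (Cd34 0.72, Tie1 0.72 and Pecam1 0.70). Of the other lists of 8, both tested adipocyte markers rose on both scales (Scd1 0.71 and Lpl 0.64), 2 of 3 muscle markers rose as deposited (Smtn 0.50 and Des 0.44) and 0 after centring, the macrophage marker Lyz2 stood at -0.20 and passed, as lower, after centring alone, and no epithelial marker was tested. Without siSelT-1 replicate 1 the counts of these lists were 0, and without siSelT-1 replicate 2 the genes that rose were 2 fibroblast, 2 endothelial, 2 adipocyte and 0 muscle markers and no marker fell. The part of other cell types in the members' ratios was not tested.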

How the data were processed

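The authors deposited 1 log ratio per probe and array, a log2 value as read here from its range. The base, background correction, normalization and the reason for missing values are not given in the sources used here. Direction was taken as Cy5 (knockdown) over Cy3 (vector), per the labels' dyes and titles, and a ratio turned the other way would turn every sign. The dye was the same on all arrays, so a dye effect of a gene cancels only in siSelT-1 minus siSelT-5.

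Of 22534 probes, 18129 carried 1 gene name, 140 several and 4265 none. 18041 matched GRCm38.p6 by Entrez identifier and 0 symbols changed. A gene was the mean of its named probes with 4 values. The model, a mean per construct leaving 2 residual degrees of freedom, was run by lmFit and eBayes of limma 3.58.1 under R 4.3.3 and was tested on simulated data. If arrays shared vector RNA, which is not given, the p-values leave out the spread of the vector cultures. The number of arrays limits the precision.

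Members and lists were chosen with earlier results of these data known. Named genes were all members, of each list up to 4 genes of smallest unadjusted p, measured relatives, and the 3 genes nearest to Thbs1, Ccn2 and Eln. Col3a1, Wwtr1, Mob1a, Crim1, Igf2 and Speer4b were named after their values were seen. Alternatives were centring, scaling, the missing-value filter, single probes, the probe median, robust eBayes, array weights, a single mean, a replicate block and each array left out. Fits of the siSelT-5 arrays alone were added after seeing the data.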

Additional observations from a re-analysis of the deposited data

Results flagged for a closer look

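Postn differed between the constructs by the test of the difference itself, with siSelT-1 minus siSelT-5 at -2.42 (SE 0.16, limma over 4754 genes). It was lower than vector on 2 of 2 siSelT-1 arrays and higher on 2 of 2 siSelT-5 arrays, for each of its 2 probes, and the gene passed with centred ratios as well. It did not pass with the replicate block, or without either siSelT-1 array, where the spread rests on the looser siSelT-5 pair. The difference was -2.46 without siSelT-1 replicate 1 and -2.38 without siSelT-1 replicate 2. It was -2.335 without siSelT-5 replicate 1 and -2.51 without siSelT-5 replicate 2. Since Postn was among genes chosen with these ratios known, the test is not independent of the choice. With 2 arrays per construct, no group was large enough to look for a single array standing apart.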

How the results depend on the processing

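The count of members that passed for both constructs (6 of 9, with 2554 of 4754 genes) was 5 with a single mean over the arrays (1615 genes). It was 7 when centred on the shared probes (2015 genes) or centred and scaled (2228 genes), and 6 under the other settings that kept all arrays. Its counts with 1 array left out are given above and rest on the spread of 1 construct's pair. For siSelT-1 (5, with 650 of 4754 genes) it was 1 when probes needed a value on just 1 array per construct (67 of 6024 genes). It was 1 with the replicate block (35 genes), and 7 with array weights (1920 genes) and with centred and scaled arrays (1588 genes). These member counts thus moved with those of all genes. For siSelT-5 (6, with 2563 of 4754 genes) the count of members ranged from 5 to 7 under the settings that kept all arrays. The fits of the siSelT-5 arrays alone lay within that range. For siSelT-1 minus siSelT-5 (1) it was 4 with arrays centred on all their values (2512 of 4754 genes), 2 centred and scaled (15 genes), 2 with array weights (279 genes), 0 with the replicate block (limma, 6 members at an unadjusted p under 0.05), and 0 to 6 with an array left out. The labels do not say that a replicate number marks a shared batch. Same-numbered deviations correlated at 0.068 over 7038 shared probes, so the block is given for completeness.

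Signs turned for some ratios, not all of them near 0. As deposited Postn was 0.43 for both constructs, and the difference was 0.67 for Thbs1, -0.39 for Tnc and -0.49 for Ccn5. Centred on the shared probes, Ccn5 was -0.24 for both constructs, Ccn5 -0.13 and Sparc -0.26 for siSelT-5, and Thbs2 -0.12 for siSelT-1. Centred and scaled, Ccn5 was -0.31 and Postn -0.088 for both, Ccn5 -0.16 and Sparc -0.21 for siSelT-5, and Thbs2 -0.16 for siSelT-1. Centred on all values, Thbs2 was 0.0081 for both, -0.10 for siSelT-1, 0.12 for siSelT-5 and -0.22 for the difference. When 1 array per construct was enough, the difference was -0.081 for Thbs1 and 0.0016 for Tnc, since probes with fewer values entered. With an array left out, Ccn5 ranged from -0.37 to 0.42 for both constructs, from -0.53 to 1.07 for siSelT-5 and from -1.29 to 0.31 for the difference. The Ccn5 changes reflect which siSelT-5 array was kept. The changes on centred scales follow from subtracting each array's median and, where scaled, from dividing by its spread.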
